A study of Mus musculus with 36 samples.

Results

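The miRNAs described here are the mature products of the miR-10, miR-99, miR-100 and miR-125 hairpins in a mouse pre-B cell line. They were taken from the table of normalised miRNA values by name alone, as every entry called miR-10a, miR-10b, miR-99a, miR-99b, miR-100, miR-125a or miR-125b with any arm, and 8 of the 469 miRNAs met this rule. These were mmu-miR-10a-5p, mmu-miR-10a-3p, mmu-miR-10b-5p, mmu-miR-99b-5p, mmu-miR-99b-3p, mmu-miR-100-5p, mmu-miR-125a-5p and mmu-miR-125a-3p. MiR-99a, miR-125b and the 3p arms of miR-10b and miR-100 had no entry among the 469 miRNAs and so were not analysed here.

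Mature miRNAs are cut as pairs of strands, named 5p and 3p, from the arms of a hairpin, and guide silencing mainly through the seed, bases 2 to 8 from the 5′ end. The miR-10 genes lie inside the Hox clusters, which hold developmental regulators that are active in blood progenitors. The miR-99, miR-100 and miR-125 genes are found together with let-7 genes in conserved clusters, and miR-125 is best known in blood for supporting stem and progenitor cells. A high level of these miRNAs is a usual feature of haematopoietic progenitors, and pre-B cells stand between such progenitors and mature B lymphocytes.

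Small RNA sequencing covered 36 samples of B3, a mouse pre-B lymphocyte line, with 3 samples per line and time at 0, 2, 6, 12, 18 and 24 h. The Ikaros line was transduced with an MSCV retrovirus encoding HA-tagged wild-type Ikaros fused to ERt2, a hormone-binding domain taken from the estrogen receptor, with an IRES and GFP, and 4-hydroxy-tamoxifen (4-OHT) brings this fusion protein into the nucleus. The control line carried the same vector with ERt2 and GFP but no Ikaros, and was given 4-OHT in the same way, so the drug and the hormone-binding domain are shared by both. The labels give 0.5 uM 4-OHT for every sample, whereas the methods describe the 0 h cells as untreated. Each line is a pool of transduced cells sorted on GFP, so a line difference is a difference between 2 such pools, and at 0 h it precedes the addition of drug. The 0 h cells came from culture batches 4, 5 and 6 and the later times from batches 1, 2 and 3, with each batch holding both lines.

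All values are on the log2 scale after the normalization of the authors. A step of 1 is a doubling, and the values carry no read counts, so the depth of each sample is unknown. The labels and the table do not give the sequencing batch of a sample. In the drawing of the small RNA design that goes with the methods, control samples between 2 h and 18 h sit in another batch than most Ikaros samples, whereas at 0 h and 24 h the batches hold some samples of both lines in common. Some biological replicates were sequenced in both batches. The authors corrected the batch and state that these repeats kept it from being confounded with the conditions. What remains of the batch after that correction cannot be told apart from the line between 2 h and 18 h in the deposited values. All 8 miRNAs fixed as lymphoid markers were in the table, among them miR-181a-5p between 17.5 and 18.7 in all samples, and the log2 of the sum of the 8 lay between 18.3 and 19.0 in the control line and between 18.0 and 18.7 in the Ikaros line. Of 12 markers of other cells 4 were in the table. These were miR-9-5p, known from neural cells and here between 12.7 and 13.9, miR-200c-3p (epithelial), miR-126a-3p (endothelial and stem cells) and miR-223-3p (myeloid), and the log2 sum of the 4 was 13.0 to 13.9 in the control line and 12.7 to 13.7 in the Ikaros line. The 3 without miR-9-5p summed to 5.97 to 6.82 in the control line and to 6.85 to 7.88 in the Ikaros line, with no overlap. MiR-126a-3p had the highest medians of the 3, 5.90 in the control line and 7.14 in the Ikaros line. The line difference of miR-200c-3p was 0.33 at 0 h and -0.13 at 24 h, and that of miR-223-3p was -0.02 and 2.06. Their part in the differences described here was not tested.

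The mature sequences show how the members relate, since the 5p arms fall into 3 seed groups and the counting of near-identical sequences bears on the values. All 8 members had an entry in RefSeq (GRCm38.p6). The sequences are given 5′ to 3′ with the seed in capitals.
mmu-miR-10a-5p: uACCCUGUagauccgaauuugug
mmu-miR-10b-5p: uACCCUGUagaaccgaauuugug
mmu-miR-99b-5p: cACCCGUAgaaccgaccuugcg
mmu-miR-100-5p: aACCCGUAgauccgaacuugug
mmu-miR-125a-5p: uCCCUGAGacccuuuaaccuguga
mmu-miR-10a-3p: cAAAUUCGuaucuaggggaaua
mmu-miR-99b-3p: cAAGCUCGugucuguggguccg
mmu-miR-125a-3p: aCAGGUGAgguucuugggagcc

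MiR-10a-5p and miR-10b-5p have the same 23-base length, the same seed and the same number of G and C bases, 10. They differ by the single substitution U12A, counted from 1 at the 5′ end with the base of miR-10a-5p first. A read with an error at that base could be counted for the other miRNA, and the split of reads between them is uncertain for this reason. MiR-99b-5p and miR-100-5p share the seed ACCCGUA and differ at 4 of 22 bases, as C1A, A11U, C16A and C21U with the base of miR-99b-5p first. MiR-125a-5p has the seed CCCUGAG, which a single other miRNA of the table carried, miR-351-5p. The 3p arms have a seed each of their own.

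The 5 hairpins lie on 4 chromosomes. Coordinates are those of GRCm38 in the GENCODE vM21 annotation, matched by name. Mir10a, at chr11:96317165-96317274 on the plus strand, is intergenic, 11044 bases after Hoxb5 and 993 bases before Hoxb4. Mir10b, at chr2:74726070-74726137 on the plus strand, lies in introns of Hoxd3 and Hoxd4. Mir99b (chr17:17830188-17830257) and Mir125a (chr17:17830812-17830879) are on the plus strand with Mirlet7e between them, and the 3 hairpins span 692 bases within Spaca6. Mir99b is in an intron of that gene, whereas Mir125a overlaps an annotated exon. Mir100, at chr9:41531425-41531504 on the plus strand, lies in introns of the non-coding 3110039I08Rik and Gm49317 and within an exon of Gm48742 on the other strand. Mirlet7a-2 and Mir125b-1 follow it, within 50578 bases in all. The hairpins of Mir10a and Mir10b are given from RefSeq, with the mature arms in capitals, because the arms of Mir10a are compared later.
Mir10a: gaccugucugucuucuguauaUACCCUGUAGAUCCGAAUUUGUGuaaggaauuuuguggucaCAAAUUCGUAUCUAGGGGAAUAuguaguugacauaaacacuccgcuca
Mir10b: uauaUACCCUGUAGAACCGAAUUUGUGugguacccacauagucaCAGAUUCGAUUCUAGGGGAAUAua

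The members spanned nearly the whole table, whose values ran from 0.09 to 19.3. Their lowest value was 0.17, for miR-100-5p in the 24 h Ikaros sample of replicate 4, and their highest was the maximum of the table, for miR-10a-5p. MiR-10a-5p had a mean of 17.0 over the 36 samples and stood at rank 3 to 6 among the 469 miRNAs in the control line and at rank 1 to 4 in the Ikaros line. On the linear scale it made up 2.77% to 7.74% of the summed values of a control sample (median 5.41%, 18 samples) and 6.28% to 32.4% of an Ikaros sample (median 15.9%, 18 samples). MiR-99b-5p had a mean of 10.5, miR-125a-5p of 7.88, miR-10b-5p of 7.65 and miR-10a-3p of 6.00. MiR-99b-3p, miR-125a-3p and miR-100-5p had means of 1.55, 1.47 and 1.28, and these 3 were among the lowest 25% of the table, below 1.85. The mature sequences are 22 to 24 bases long, so these values compare miRNAs of nearly equal length. Whether normalised values of different miRNAs stand for their relative amounts in the cells was not tested.

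**Figure D1:**
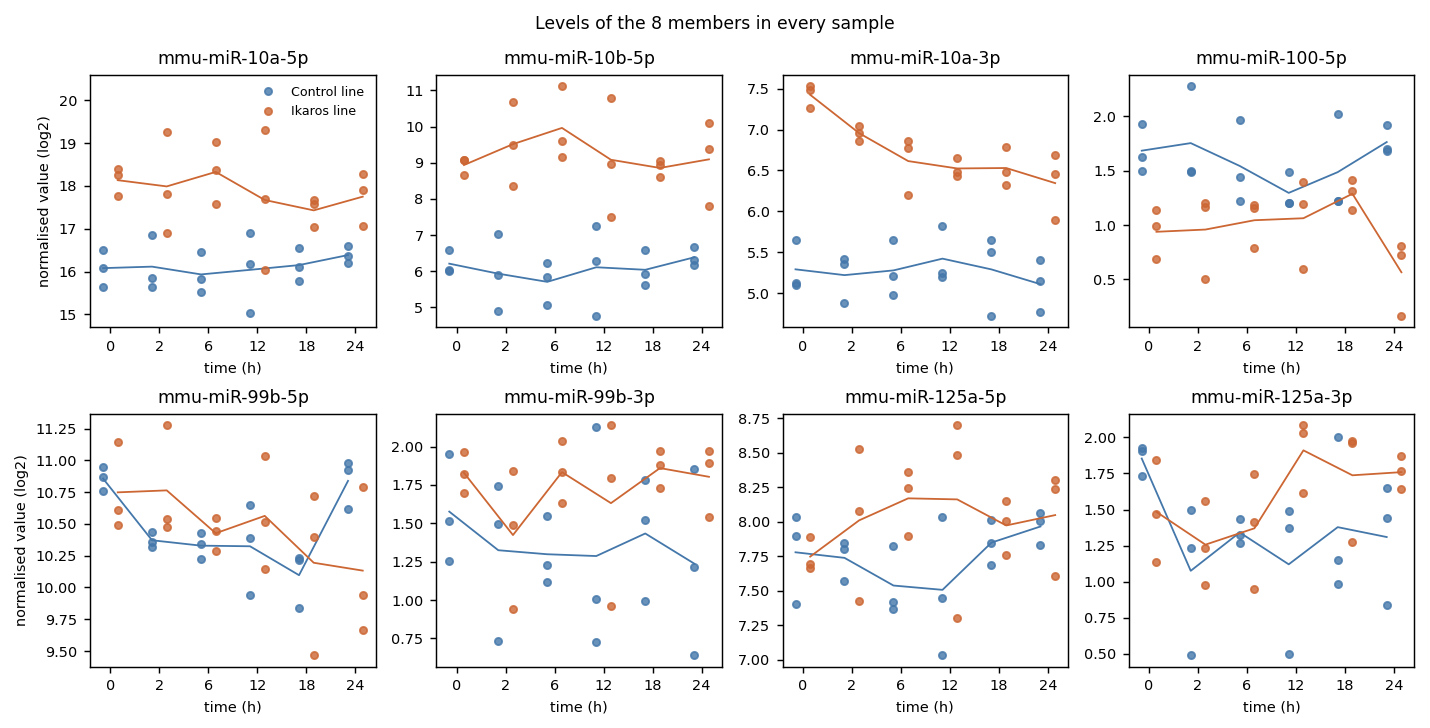
Normalised log2 values (y axis) of the 8 members by time in hours (x axis, evenly spaced) in the control line (blue) and the Ikaros line (orange), with a point per sample and lines through the group means of 3. MiR-10a-3p and miR-10b-5p of the Ikaros line lie above the control line at all 6 times, and miR-100-5p of the Ikaros line lies lowest at 24 h.

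The comparison of the lines at each time asks which members differ between cells with and without inducible Ikaros, and at 0 h how far the lines differ without drug. The miR-10 members were higher in the Ikaros line throughout, whereas the miR-99, miR-100 and miR-125 members differed less and passed the test, for 2 of them, at 24 h alone. By limma with Benjamini-Hochberg adjustment over the 469 miRNAs, 3 of the 8 members passed an adjusted p of 0.05 at 0 h, where 8.53% of all miRNAs did. At 2 h it was 3 members against 11.3% of all miRNAs, at 6 h 3 against 15.1%, and at 12 h 3 against 21.7%. All of these were higher in the Ikaros line and all were miR-10 members. At 18 h 2 members passed, both higher, against 29.9% of all miRNAs. At 24 h 4 members passed, 2 higher and 2 lower, against 39.9% of all miRNAs, which is near the share of the members. The median line difference of the 8 members was 0.11, 0.33, 0.58, 0.72, 0.39 and 0.51 from 0 h to 24 h, and that of all miRNAs lay between -0.07 and 0.07.

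MiR-10a-5p, the most abundant member, differed by 1.28 to 2.39 log2 units between the lines. At 0 h the control samples (replicates 1, 2 and 4, in this order throughout) were at 16.51, 16.09 and 15.64 and the Ikaros samples at 18.25, 18.39 and 17.76. At 2 h the controls were at 15.85, 15.63 and 16.86 and the Ikaros samples at 16.89, 17.81 and 19.27. At 6 h they were at 16.45, 15.52 and 15.83 against 19.03, 17.58 and 18.36. The lines did not overlap at these times, but at 2 h the lowest Ikaros sample and the highest control sample were almost level. At 12 h the controls were at 15.04, 16.89 and 16.18 and the Ikaros samples at 16.03, 17.68 and 19.30, so that the lines overlapped and the Ikaros samples spread over 3.26 log2 units. At 18 h the values were 16.56, 16.12 and 15.78 against 17.04, 17.58 and 17.67. At 24 h they were 16.60, 16.35 and 16.20 against 18.27, 17.92 and 17.06. The Ikaros sample was the higher in all 18 pairs of the same time and replicate number, and 16 of the 18 Ikaros samples stood above every control sample.

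The line difference of miR-10a-5p was 2.05 (SE 0.57, adjusted p = 0.017) at 0 h, or 4.15-fold. It was 1.87 (adjusted p = 0.034) at 2 h, 2.39 (adjusted p = 0.0035) at 6 h and 1.63 (adjusted p = 0.040) at 12 h, each with the same SE. At 18 h and 24 h it was 1.28 and 1.36 and missed the threshold, with adjusted p of 0.093 and 0.058. The 95% interval at 24 h ran from 0.20 to 2.53 and included the value of 0 h. The spread within groups was large, with a pooled within-group SD of 0.77 that ranked 6 among the 469 miRNAs, whose median was 0.36. Without replicate 2, miR-10a-5p passed at none of the 6 times, with differences of 1.18 to 2.56 and adjusted p of 0.096 to 0.40. Other planned settings also ended calls. Without replicate 4 the difference was 1.61 (adjusted p = 0.10) at 2 h and 0.89 (adjusted p = 0.29) at 12 h, and in a fit of only the groups compared it was 1.87 (adjusted p = 0.18) and 1.63 (adjusted p = 0.22) at these times. With quantile normalization the differences were 1.24, 0.96, 1.58, 1.15, 0.69 and 0.85 in the order of the times, and miR-10a-5p passed at 6 h alone (adjusted p = 0.022, against 0.087 to 0.30 at the other times). The 3 Ikaros samples of 12 h stood furthest apart, and with the 12 h samples of both lines left out of the fit, miR-10a-5p passed at all 5 other times, including 18 h (adjusted p = 0.025) and 24 h (adjusted p = 0.014). That fit was chosen after the values were seen.

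MiR-10b-5p, which shares its seed with miR-10a-5p but is read from the Hoxd cluster, had the largest line differences of the 8 members. At 0 h the control samples were at 6.59, 6.00 and 6.04 and the Ikaros samples at 9.07, 9.08 and 8.67. At 2 h they were at 5.89, 4.89 and 7.02 against 8.37, 9.49 and 10.70. At 6 h the values were 6.22, 5.06 and 5.84 against 11.12, 9.16 and 9.61. The lines did not overlap at these 3 times, and the samples of both lines lay further apart at 2 h than at 0 h. At 12 h the controls were at 4.77, 7.26 and 6.30 and the Ikaros samples at 7.49, 8.96 and 10.80. At 18 h they were at 6.58, 5.91 and 5.63 against 8.93, 9.05 and 8.59. At 24 h the values were 6.67, 6.17 and 6.32 against 10.10, 9.38 and 7.80. No Ikaros sample of any time fell to the level of any control sample, the lowest Ikaros value being 7.49 and the highest control value 7.26.

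The line difference of miR-10b-5p was 2.73 (SE 0.68, adjusted p = 0.0064) at 0 h, 3.58 (adjusted p = 0.00033) at 2 h and 4.26 (adjusted p = 4.8e-05) at 6 h, which is 19.1-fold. It was 2.97 (adjusted p = 0.0018) at 12 h, 2.82 (adjusted p = 0.0019) at 18 h and 2.71 (adjusted p = 0.0021) at 24 h. At 0 h and 24 h the differences were 6.62-fold and 6.54-fold, and the difference at 24 h beyond that at 0 h was -0.02 with a 95% interval of -1.99 to 1.95. Its within-group SD of 0.92 ranked 5 among the 469 miRNAs. Without replicate 2 it did not pass at 0, 2, 18 and 24 h (adjusted p of 0.068 to 0.20, differences of 2.46 to 3.08), and it did pass at 6 h and 12 h. Group means of miR-10b-5p fell into 2 sets, the 6 Ikaros groups from 8.86 to 9.96 and the 6 control groups from 5.71 to 6.39. The step between the sets, 2.47, was the only step between neighbouring groups above the within-group SD. The same held for miR-10a-5p, where the step between the lines was 1.04, so for neither was an order of the times within a line resolved.

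MiR-10a-3p, the opposite strand of the Mir10a hairpin, was low but replicated closely, with a within-group SD of 0.31. At 0 h the control samples were at 5.13, 5.10 and 5.65 and the Ikaros samples at 7.26, 7.49 and 7.53. At 2 h they were at 5.36, 5.42 and 4.88 against 6.86, 7.05 and 6.96. At 6 h the values were 4.97, 5.64 and 5.21 against 6.199, 6.78 and 6.87. The Ikaros samples were highest at 0 h, and the control samples kept to about the same range at all 3 times. At 12 h the controls were at 5.19, 5.82 and 5.25 and the Ikaros samples at 6.49, 6.65 and 6.43. At 18 h they were at 4.72, 5.50 and 5.64 against 6.48, 6.32 and 6.79. At 24 h they were at 4.77, 5.40 and 5.15 against 5.89, 6.46 and 6.68. All 18 Ikaros samples lay above all 18 control samples, by a margin of 5.89 to 5.82 at the narrowest.

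The line difference of miR-10a-3p was 2.14 (SE 0.25, adjusted p = 5.3e-07) at 0 h, 1.74 (adjusted p = 1.0e-05) at 2 h and 1.34 (adjusted p = 0.00030) at 6 h. It was 1.10 (adjusted p = 0.0018) at 12 h, 1.24 (adjusted p = 0.00031) at 18 h and 1.24 (adjusted p = 0.00026) at 24 h. MiR-10a-3p passed at every time with any replicate left out, and under every other setting tried except at 12 h in a fit of only the groups compared (adjusted p = 0.085). Across all times and settings, the differences of miR-10a-5p, miR-10a-3p and miR-10b-5p were positive in 71 of 71 fits each, including those with sample medians subtracted and those with quantile normalization, in which most calls of miR-10a-5p were lost. The 3 samples of each line did not overlap for miR-10a-3p and miR-10b-5p at any of the 6 times and for miR-10a-5p at 5 of them. Among all 469 miRNAs, the share without overlap was 26.2%, 26%, 34.3%, 25.6%, 47.5% and 54.2% in the order of the times.

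**Figure D2:**
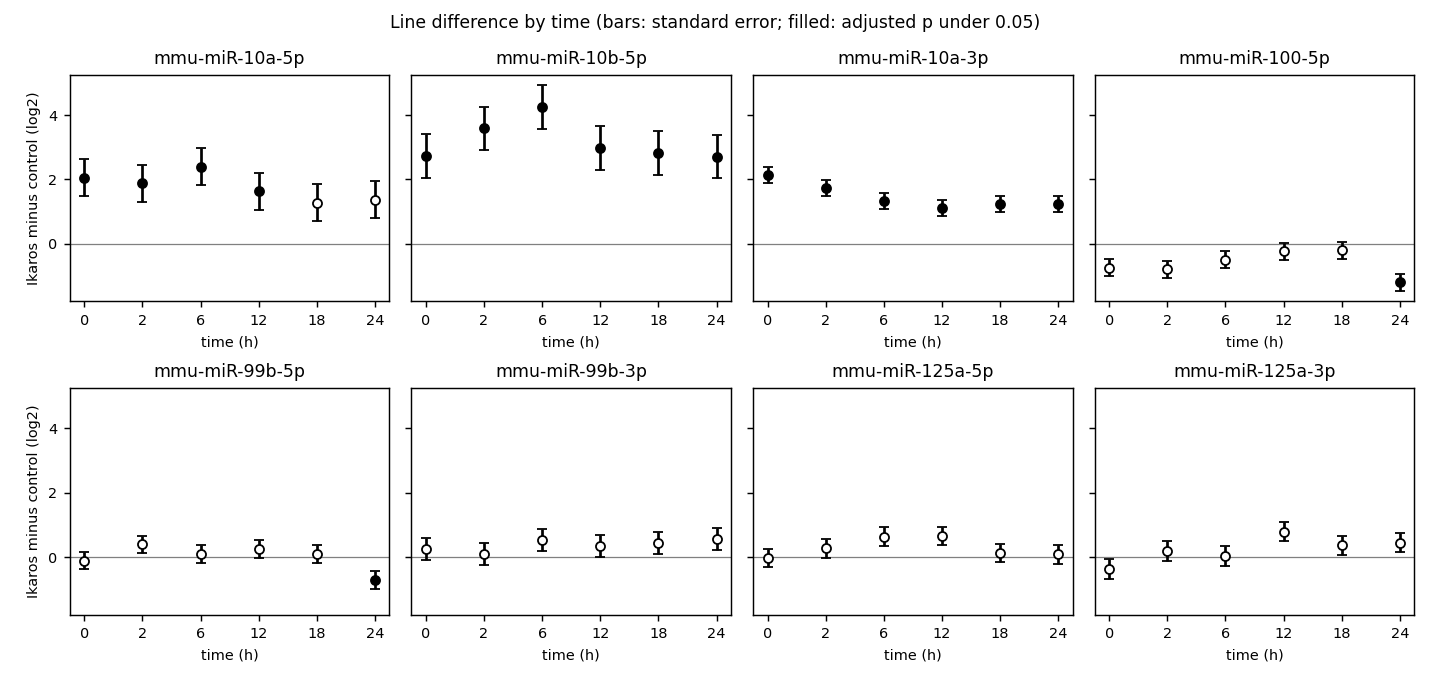
Line difference of each member, Ikaros minus control, on the log2 scale (y axis) by time in hours (x axis, evenly spaced), with bars for the standard error of the limma fit and filled points where the adjusted p was under 0.05. MiR-10b-5p and miR-10a-3p are filled at all 6 times and miR-10a-5p at the first 4. MiR-100-5p lies below 0 at all 6 times and miR-99b-5p at 0 h and 24 h only, and both are filled at 24 h alone.

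MiR-100-5p was the only member lower in the Ikaros line at every time. At 0 h the control samples were at 1.62, 1.50 and 1.93 and the Ikaros samples at 0.99, 1.14 and 0.69. At 2 h they were at 1.49, 1.49 and 2.28 against 1.17, 0.50 and 1.20. At 24 h they were at 1.92, 1.68 and 1.70 against 0.81, 0.72 and 0.17. The lines did not overlap at these 3 times. Between 6 h and 18 h the control samples ranged from 1.20 to 2.02 and the Ikaros samples from 0.59 to 1.41, and the lines did not overlap at 6 h. The difference was -1.20 (SE 0.27, adjusted p = 0.00068) at 24 h, where the Ikaros level was 0.44-fold that of the control line. It was -0.75 (adjusted p = 0.091) at 0 h, -0.79 (adjusted p = 0.051) at 2 h and -0.50 to -0.20 from 6 h to 18 h, none of them past the threshold. With quantile normalization it did pass at 0 h (-0.83, adjusted p = 0.028) and at 2 h (-0.79, adjusted p = 0.039). It also passed at 2 h in the fits chosen after the values were seen, with the covariate described later (adjusted p = 0.040) and with the 12 h samples left out (adjusted p = 0.044). At 24 h it passed with each replicate left out (differences of -1.32 to -1.03). With the lowest 25% of miRNAs dropped it was not tested.

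These low values carry a limit of their own. The control samples of replicates 2 and 4 held exactly the same miR-100-5p value at 12 h (1.20) and again at 18 h (1.22). Among the 118 miRNAs of the lowest 25%, 46 held equal values in 2 samples of a group at least once, with 108 such pairs in all, against 1 pair among the other 351 miRNAs. These pairs were most frequent in the control line, with 40 at 12 h, 24 at 2 h and 13 at 18 h, and none at 24 h. What gave rise to the equal values was not tested. No equal pair of miR-100-5p fell at 0, 2 or 24 h, and miR-99b-3p and miR-125a-3p, also among the lowest 25%, had no equal pair.

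MiR-99b-5p, with the seed of miR-100-5p, passed the threshold at no time up to 18 h, where its largest line difference was 0.39, at 2 h. At 0 h the control samples were at 10.87, 10.76 and 10.94 and the Ikaros samples at 11.14, 10.61 and 10.49. At 2 h they were at 10.36, 10.44 and 10.32 against 11.28, 10.54 and 10.47. At 24 h they were at 10.92, 10.61 and 10.98 against 10.79, 9.66 and 9.94. At 2 h each Ikaros sample was above the controls, and at 24 h 2 of the 3 were well below them while the other lay within their range. The line difference was between -0.11 and 0.39 from 0 h to 18 h (adjusted p of 0.44 or above) and -0.71 (SE 0.28, adjusted p = 0.043) at 24 h. This call at 24 h was not firm. It was lost without replicate 2 (-0.58, adjusted p = 0.17), without replicate 4 (-0.54, adjusted p = 0.30) and with sample medians subtracted (-0.47, adjusted p = 0.14). It was also narrowly lost in a fit of only the groups compared (adjusted p = 0.063), with quantile normalization (adjusted p = 0.055) and without the mean-variance trend (adjusted p = 0.051).

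MiR-99b-3p, the other strand of the same hairpin, did not pass at any time. It ranged from 0.64 to 2.13 in the control line and from 0.94 to 2.14 in the Ikaros line, with medians of 1.38 and 1.83. Its line difference was positive at each time, from 0.10 at 2 h to 0.57 at 24 h (adjusted p = 0.19, 95% interval -0.13 to 1.26). The strands of Mir99b therefore lay on opposite sides of 0 at 24 h, though the 3p arm was near the lower end of the table.

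MiR-125a-5p, from the same cluster as miR-99b-5p, ranged from 7.04 to 8.06 in the control line (median 7.83) and from 7.31 to 8.70 in the Ikaros line (median 8.04). At 6 h the control samples were at 7.83, 7.42 and 7.37 and the Ikaros samples at 8.25, 7.90 and 8.36, the only time without overlap. The line difference was 0.63 at 6 h (SE 0.29, adjusted p = 0.16) and 0.66 at 12 h (adjusted p = 0.10), and between -0.03 and 0.27 at the other times. At 24 h its 95% interval ran from -0.50 to 0.67. MiR-125a-3p ranged from 0.49 to 2.00 in the control line and from 0.95 to 2.08 in the Ikaros line, with differences from -0.37 at 0 h to 0.79 at 12 h (adjusted p = 0.059), none past the threshold.

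Ratios within a sample remove what scales all miRNAs of that sample alike, and were examined for 3 pairs chosen after the values were seen. The first sets miR-10b-5p against miR-10a-5p, which have the same length and GC content. In the control line the log2 difference of miR-10b-5p minus miR-10a-5p ran from -10.74 to -9.61 over 18 samples (mean -10.05), a mean level of 0.0941% of miR-10a-5p. In the Ikaros line it ran from -9.32 to -7.91 (mean -8.64), or 0.251%. No sample of either line fell in the range of the other. The ratio was higher in the Ikaros line at all 6 times, by 0.67 at 0 h, the smallest, to 1.86 at 6 h, and by 1.41 on average. A two-sided permutation test, with the line labels permuted within each time over 100000 resamples, gave p = 1e-05, the smallest these can give. After Benjamini-Hochberg adjustment over the 3 ratios it was 3e-05, which leaves the choice of these pairs uncounted. The levels of both miRNAs were known when the pair was chosen, so the p is no separate support for a line difference. What remains of the sequencing batch in each miRNA need not cancel in a ratio. Between 2 h and 18 h it cannot be told apart from the line. The permutation took all samples as independent. However, same-numbered samples of both lines share a culture batch, and batches 1, 2 and 3 supply every time after 0 h. The p-values of the 3 ratio tests therefore count the same culture batches more than once, and 1e-05 overstates the certainty. A read error at the single differing base would move counts between these miRNAs, and its part in either level was not tested.

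**Figure D3:**
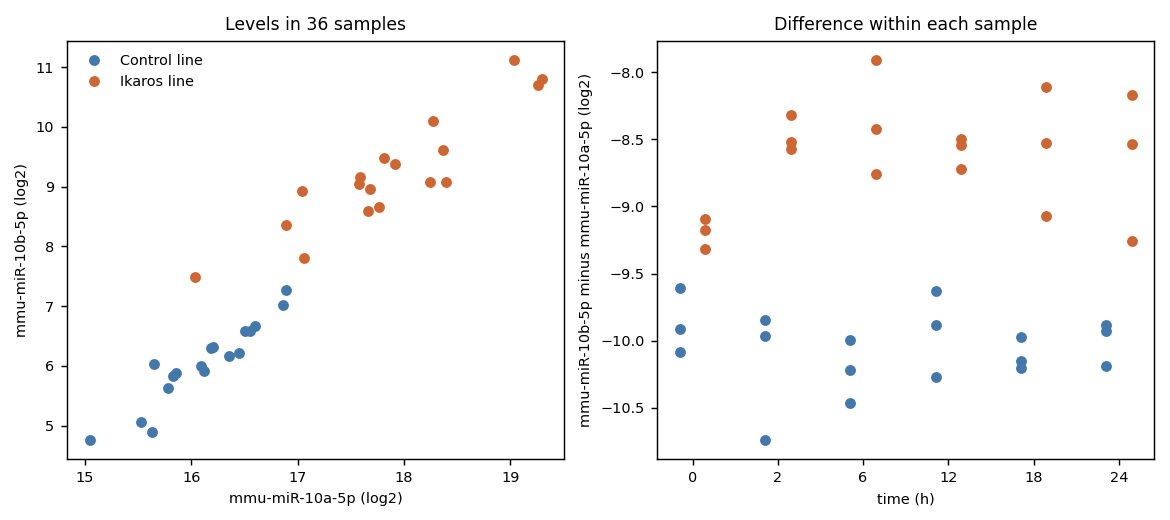
Left, normalised log2 values of miR-10b-5p (y axis) against miR-10a-5p (x axis) in 36 samples, a point per sample, with the control line in blue and the Ikaros line in orange. Right, the log2 difference of miR-10b-5p minus miR-10a-5p within each sample (y axis) by time in hours (x axis, evenly spaced), which lies between -10.74 and -9.61 in control samples and between -9.32 and -7.91 in Ikaros samples.

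The second ratio compared the strands of Mir10a. MiR-10a-5p exceeded miR-10a-3p by 9.85 to 11.98 log2 units in the control line (mean 10.85) and by 9.55 to 12.86 in the Ikaros line (mean 11.15), so the ranges overlapped widely. The mean difference between the lines was 0.30 (permutation p = 0.30, also after adjustment), and by time it ran from -0.08 to 1.05. Both strands of Mir10a were thus higher in the Ikaros line, and a difference between them in this was not detectable against the spread, which is too wide to call the amounts equal. The third ratio set miR-99b-5p against miR-125a-5p, the clustered pair on chromosome 17. The mean was 2.74 in the control line and 2.45 in the Ikaros line, a difference of -0.29 (permutation p = 0.13, adjusted p = 0.20).

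The time course in each line asks whether the members changed after 4-OHT was added. Between 2 h and 24 h, limma called for the Ikaros line none of the 8 members, while 28.6% of all miRNAs passed, and 2 members had an unadjusted p under 0.05. These were miR-10a-3p, which differed by -0.61 (SE 0.25, adjusted p = 0.069), and miR-99b-5p, by -0.63 (SE 0.28, adjusted p = 0.087). With culture batch entered as a replicate block, miR-10a-3p passed (adjusted p = 0.031), the only member to do so. All 3 same-numbered samples were lower at 24 h than at 2 h, with changes of -0.97, -0.59 and -0.28. In the control line limma called none of the 8 members and 0% of all miRNAs, and an unadjusted p under 0.05 was seen for no member and for 33 of the 469 miRNAs. F-tests over 2 h to 24 h called no member in the Ikaros line (20.5% of all miRNAs) and none in the control line (0.426%), and in neither had a member an unadjusted p under 0.05.

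MiR-10a-5p and miR-10b-5p had no common direction over time in the Ikaros line. From 2 h to 24 h the same-numbered samples of miR-10a-5p moved by 1.39, 0.11 and -2.21, and those of miR-10b-5p by 1.74, -0.11 and -2.89. The mean changes of -0.24 and -0.42 were far within this spread (adjusted p = 0.81 and 0.69). Replicate 4 of 2 h was among the highest Ikaros samples and replicate 4 of 24 h the lowest of its group for both, and without replicate 4 the changes were 0.75 and 0.81.

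A change of the line difference itself was tested in 3 ways. For the line difference at 24 h beyond that at 0 h, limma called none of the 8 members (12.37% of all miRNAs), and 1 had an unadjusted p under 0.05. This was miR-10a-3p, whose line difference was smaller at 24 h (change of -0.90, SE 0.36, adjusted p = 0.10). With culture batch entered as a replicate block the same value passed, with an adjusted p of 0.047. In the order of the times, the Ikaros group means of miR-10a-3p were 7.43 ± 0.15 (SD, n = 3), 6.96 ± 0.09, 6.62 ± 0.36, 6.53 ± 0.12, 6.53 ± 0.24 and 6.35 ± 0.41, against 5.11 to 5.42 in the control groups. The 0 h cells came from other culture batches, so a change from 0 h within a line cannot be told apart from the batch, whereas the line difference at a time is within batches.

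For the change from 2 h to 24 h of the Ikaros line beyond the control line, none of the 8 members was called (14.3% of all miRNAs), and 1 had an unadjusted p under 0.05. This was miR-99b-5p, with a difference of -1.10 (SE 0.39, adjusted p = 0.058), and it passed with culture batch entered as a replicate block (adjusted p = 0.037). With a replicate left out it did not pass (adjusted p of 0.095 to 0.28). MiR-99b-5p was lower at 24 h than at 2 h in all 3 Ikaros pairs (-0.48, -0.88 and -0.53) and higher in all 3 control pairs (0.56, 0.17 and 0.67). The F-test of an interaction of line and time over the 6 times called none of the 8 members (13% of all miRNAs), with no unadjusted p under 0.05 and adjusted p of 0.23 or above.

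Deviations of the samples from their group means showed which members varied together from sample to sample. Over the 36 samples, deviations of miR-10a-5p correlated with those of miR-10b-5p (r = 0.94) and of miR-125a-5p (r = 0.84), and these come from 3 chromosomes. They did not follow those of miR-10a-3p, from the same hairpin (r = -0.29). MiR-99b-5p and miR-125a-5p, from the same cluster, had r = -0.26. MiR-351-5p, with the seed of miR-125a-5p but from the X chromosome, had r = 0.93 with miR-10a-5p. All these points share libraries and normalization, and the r are descriptions. MiR-10b-5p differs from miR-10a-5p by a single base and had a mean level of 0.0941% of it in the control line and 0.251% in the Ikaros line. The part of miscounted miR-10a-5p reads in their r was not tested.

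**Figure D4:**
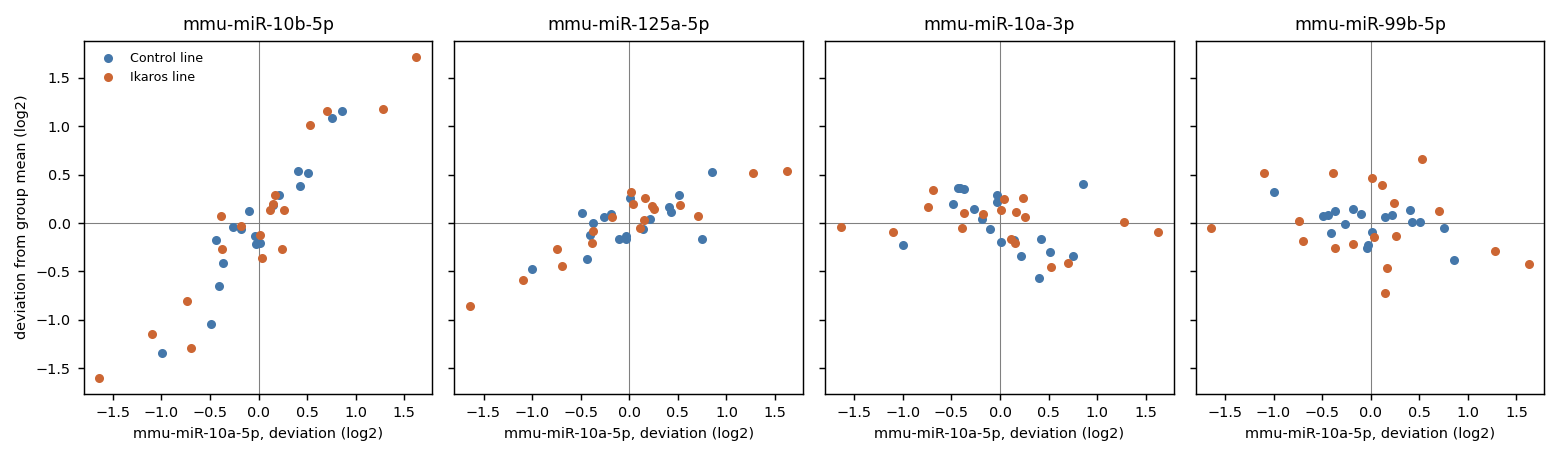
Deviation from the group mean in log2 units of miR-10b-5p, miR-125a-5p, miR-10a-3p and miR-99b-5p (y axes) against that of miR-10a-5p (x axes), with a point for each of 36 samples in the control line (blue) or the Ikaros line (orange). The first 2 rise with miR-10a-5p (r = 0.94 and 0.84) and the other 2 do not (r = -0.29 and -0.28).

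This shared variation was not limited to the members. Deviations of miR-10a-5p had r above 0.8 with 30 of the other 468 miRNAs and below -0.8 with 12, those of miR-10b-5p with 27 and 10 and those of miR-125a-5p with 7 and 5. The other 5 members had no such partner. The first axis of the within-group deviations, computed without the members, held 35.7% of the within-group variance, and correlated with the deviations of miR-10a-5p at r = 0.97, of miR-10b-5p at r = 0.95 and of miR-125a-5p at r = 0.76. With the score of each sample on this axis as a covariate, a fit chosen after the values were seen, the SE of the line difference of miR-10a-5p went down to 0.16 and the difference was 1.41 to 2.11 at the 6 times, past the threshold at each. For miR-10b-5p the SE became 0.22 and the difference 2.77 to 3.80, also past the threshold at each time. In that fit both had lower values at 24 h than at 2 h in the Ikaros line, with changes of -0.63 (adjusted p = 0.0017) and -0.88 (adjusted p = 0.0017). Without the covariate these changes were -0.24 and -0.42, and neither passed. The score was centred on the mean of all samples, not of each group, so it also carried group differences. In the Ikaros line it averaged -0.25 at 2 h and 0.35 at 24 h. The axis followed the deviations of both miRNAs closely, so their smaller SE and the calls in that fit are no separate support. What the axis stands for was not tested.

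Other miRNAs related to the members by seed, position or role were few in the table. MiR-351-5p, of the miR-125 seed, lay between 9.82 and 11.22 in the control line and between 10.31 and 12.11 in the Ikaros line, and its line difference passed at 24 h only (0.99, SE 0.39, adjusted p = 0.043). Of 7 let-7 neighbours of the clusters 1 was in the table, let-7c-5p, with a difference of 0.64 at 24 h (adjusted p = 0.053), and it passed at 18 h only. Of 7 Hox-embedded miRNAs beside miR-10, miR-615-3p alone was in the table, and it passed at no time (0.00 at 0 h and -0.41 at 24 h, SE 0.45).

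Of 8 other miRNAs known from stem and progenitor cells, 6 were in the table. At 0 h 2 were higher in the Ikaros line (miR-126a-3p and miR-146a-5p) and 1 lower, where 8.53% of all miRNAs passed. At 24 h 2 were higher (miR-126a-3p and miR-29a-3p) and 1 lower, where 39.9% of all miRNAs passed. MiR-126a-3p, a miRNA of haematopoietic stem cells and endothelium, was 1.57 higher at 0 h (adjusted p = 3.5e-07) and 0.67 higher at 24 h (adjusted p = 0.0031). Its line difference changed by -0.90 between 0 h and 24 h (adjusted p = 0.015). MiR-146a-5p, a brake on inflammatory signalling, was 1.36 higher at 0 h (adjusted p = 3.1e-05) and 0.07 at 24 h (adjusted p = 0.81). MiR-29a-3p differed by -0.10 at 0 h (adjusted p = 0.87) and was 0.36 higher at 24 h (adjusted p = 0.049). MiR-221-3p, which restrains cell cycle inhibitors, was lower, with differences of -0.91 at 0 h and -0.94 at 24 h (adjusted p = 0.00058 and 0.00013). Of the markers of other cells, miR-223-3p, the classic myeloid miRNA, missed the threshold at 0 h (-0.02) and was 2.06 higher at 24 h (adjusted p = 0.00052). Whether other cells have a part in the levels of the members was not tested.

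Patterns most like those of the members called at 24 h were found by the Pearson correlation of the 12 group means. MiR-10b-5p was closest to miR-10a-5p (r = 0.99), then miR-501-3p and miR-188-3p (both r = 0.96). The part of miscounted miR-10a-5p reads in the first of these was not tested. MiR-10a-3p was closest to miR-107-3p (r = 0.98), miR-126a-3p (0.95) and miR-3058-5p (0.94). MiR-100-5p was closest to miR-212-3p (r = 0.90), miR-363-3p (0.89) and miR-410-3p (0.88), and miR-99b-5p to miR-339-3p (r = 0.88), miR-3068-3p (0.86) and miR-467d-5p (0.83). The 12 means share samples and normalization, and these r are descriptions.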

How the data were processed

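Small RNA libraries (TruSeq) of 36 samples were sequenced by the authors. Per their methods, reads were aligned with Novoalign to miRBase miRNAs and counted with multiBamCov, miRNAs under 1 CPM were removed, GC content (cqn), library composition (TMM) and sequencing batch (ComBat) were corrected, and technical replicates were averaged. The deposited values are log2 values of 469 miRNAs. They hold no counts, so the depth is unknown and the precision rests on the 3 replicates.

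Groups were line and time as given by the labels. limma 3.58.1 (R 4.3.3; lmFit, eBayes with trend) was fitted to all samples with 12 group means, and p-values were adjusted by Benjamini-Hochberg over 469 miRNAs per contrast with a threshold of 0.05. The script was tested on simulated data. Same-numbered samples of both lines share a culture batch per the labels, which is where the pairing comes from, and their deviations from group means correlated at r = 0.26. Ratio tests used numpy 2.4.6. Alternatives were leave-one-out, the replicate block, only the groups compared, median subtraction, quantile normalization, no trend and a filter on low levels, with 2 fits added after the data were seen. Named miRNAs were all 8 members, lists of related miRNAs and, per member called at 24 h, the 3 closest patterns. Members and lists were chosen with earlier results of these data known.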

Additional observations from a re-analysis of the deposited data

Results flagged for a closer look

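The 2 h and 24 h levels of miR-99b-5p differed in opposite directions in the lines. In the order of the times, the control group means were 10.86, 10.37, 10.33, 10.32, 10.10 and 10.84. The control line was thus higher at 24 h than at each time from 2 h to 18 h, and close to its 0 h level. The Ikaros group means were 10.75, 10.76, 10.43, 10.56, 10.19 and 10.13. All 3 same-numbered samples of the Ikaros line were lower at 24 h and all 3 of the control line were higher, and the mean change of the Ikaros line minus that of the control line was -1.10. The limma test of this difference gave an adjusted p of 0.058, and 0.037 when culture batch was entered as a replicate block. In the drawing of the design, control samples between 2 h and 18 h sit in another sequencing batch than most Ikaros samples. At 24 h the batches hold some samples of both lines in common, so the change from 2 h to 24 h spans both layouts. The labels give no sequencing batch per sample, and the part of the sequencing batch in this change was not tested.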

How the results depend on the processing

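Leaving out a replicate gave 1 to 3 members called at 0 h, 2 h and 18 h, 2 to 3 at 6 h and 12 h and 2 to 4 at 24 h. The lowest counts at 0, 2, 18 and 24 h came without replicate 2. With quantile normalization the counts at 0 h and 2 h stayed at 3, but miR-10a-5p was lost and miR-100-5p gained. A fit of only the groups compared called 0 members at 12 h. With culture batch entered as a replicate block, 1 member was called for each of the difference at 24 h beyond 0 h, the Ikaros change from 2 h to 24 h and that change beyond the control line, and the block changed no other count. With the axis of within-group deviation as a covariate, added after the data were seen, the counts were 5 at 12 h, 2 beyond 0 h, 2 for the Ikaros change, 3 for that change beyond the control line, 2 over time in the Ikaros line and 1 for the interaction. The score on this axis was not centred within groups, so these counts also rest on its differences between groups. Without the 12 h samples, also added, 1 member (miR-99b-5p) was called for the change beyond the control line. The causes of these changes were not tested. The other 127 counts stayed within 1.5 times the main count.

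Among the member differences recomputed, signs turned only for those that had not passed. The difference of miR-125a-5p ranged from -0.11 to 0.35 at 24 h, from -0.14 to 0.53 beyond 0 h and from -0.35 to 0.52 for the Ikaros change when a replicate was left out. The latter 2 were -0.015 and -0.056 with quantile normalization, and the Ikaros change was -0.11 with the covariate. MiR-10b-5p beyond 0 h ranged from -0.50 to 0.55 with a replicate left out and was 0.13 with medians subtracted. The Ikaros change ranged from -1.05 to 0.75 for miR-10a-5p and from -1.50 to 0.81 for miR-10b-5p with a replicate left out. Subtracting sample medians moved the all-miRNA median of the line differences up, by 0.23 at 24 h, 0.17 at 18 h and 0.16 at 6 h.

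The depth is unknown, so no smallest detectable level can be given. MiR-99b-3p, miR-100-5p and miR-125a-3p lie in the lowest 25% of the table, where equal values within groups were frequent, and were dropped by the filter on low levels.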
